A study of Mus musculus with 9 samples.

Results

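Both arms of miR-206 and of miR-133b, the myomiRs (muscle-enriched microRNAs) carried by the long non-coding RNA Lincmd1, were followed in quadriceps muscle of mice lacking Mbnl1 or Mbnl2. They were taken by name from the table of read counts: mmu-miR-206-3p, mmu-miR-206-5p, mmu-miR-133b-3p and mmu-miR-133b-5p (written without the species prefix below), 4 of the 1966 mature miRNAs it lists. The rule takes the names alone, with no threshold on a measured value, although earlier results of these data were known when the names were chosen. Small RNA libraries had been made from whole quadriceps RNA of 9 mice aged 90 days, 3 in each of 3 groups, with 1 library per mouse. WT mice were C57BL/6J with intact Mbnl1+/+ and Mbnl2+/+. Mbnl1KO mice were C57BL/6J carrying Mbnl1{delta}E3/{delta}E3 with Mbnl2+/+. Mbnl2KO mice carried Mbnl1+/+ and were labelled with the strain B6.C-Tg(CMV-cre)1Cgn/J. Their labels give the Mbnl2 alleles as {delta}E2/{delta}E2 in the first mouse, {delta}E2/{delta}E3 in the second and {delta}E2/{delta}E4 in the third, whereas the study's text gives only the first combination, and the 3 mice were analysed as 1 group. Because the CMV-cre strain is named only in that group, strain and loss of Mbnl2 cannot be told apart there. Small RNA libraries do not measure Mbnl1 or Mbnl2 mRNA, so the knockouts were not checked in these data.

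MBNL proteins bind RNA and steer its splicing, polyadenylation and stability, and their loss of function is a central step in myotonic dystrophy. miR-206 is made almost exclusively in skeletal muscle, is induced by MyoD and myogenin as myoblasts differentiate, and is known to be abundant in satellite cells, regenerating fibres and slow muscle. miR-133b lies in the same transcript, which acts as a muscle differentiation RNA and is also known for sponging miR-133 and miR-135. miR-206-3p shares its seed, the bases through which a miRNA recognises its targets, with miR-1a-3p, the main miRNA of adult muscle, and miR-133b-3p differs from miR-133a-3p only in its last base at the 3′ end.

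The mature sequences, credited to RefSeq (GRCm38.p6) for all 4 members, are shown 5′ to 3′ with the seed (bases 2 to 8) in capitals, since seed and end base decide which other miRNAs each is grouped with.
miR-206-3p: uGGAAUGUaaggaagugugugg
miR-206-5p: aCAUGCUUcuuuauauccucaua
miR-133b-3p: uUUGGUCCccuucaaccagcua
miR-133b-5p: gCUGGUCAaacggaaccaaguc

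Among the 1679 mature sequences of that RefSeq table, the seed of miR-206-3p recurred only in miR-6349 and miR-6382, both listed at 0 in all 9 libraries, and the other 3 seeds recurred in none. The table is not complete and holds no entry for miR-1a-3p or miR-133a-3p. The passenger arm miR-206-5p equalled miR-1a-1-5p at 20 of its 23 positions.

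Both hairpins were matched exactly to the plus strand of chromosome 1 of GRCm39. Mir206 was at chr1:20749234-20749306 (73 bases) and Mir133b at chr1:20752993-20753111 (119 bases), with 3686 bases between them. In the GENCODE annotation (vM39) both were within Lincmd1 (chr1:20740106-20754522). In the spliced transcript Lincmd1-202, Mir206 was in the intron between exons 2 and 3 and Mir133b was inside exon 3 (chr1:20752937-20753182). The single-exon transcript Lincmd1-201 (chr1:20749247-20754522) started inside the Mir206 hairpin and held the whole of Mir133b. The hairpins are given with both arms in capitals.
Mir206: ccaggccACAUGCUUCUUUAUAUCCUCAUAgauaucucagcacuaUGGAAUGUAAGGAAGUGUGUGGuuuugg
Mir133b: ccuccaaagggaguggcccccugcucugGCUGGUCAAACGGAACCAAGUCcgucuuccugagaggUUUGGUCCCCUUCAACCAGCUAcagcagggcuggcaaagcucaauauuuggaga

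MBNL proteins prefer a pyrimidine, GC and a pyrimidine, so UGCU or UGCC, as well as CGCU or CGCC, were searched for on the RNA strand only. Each hairpin held 1 match, UGCU in both, which was within the miR-206-5p arm of Mir206 and outside the arms of Mir133b. Of 997 mouse hairpins, 68.0% held at least 1 such match. The density of 1.37 matches per 100 bases in Mir206 was reached by 49.0% of hairpins, and the 0.84 of Mir133b by 67.3%. Such matches were thus common among hairpins.

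The 300 bases around the RefSeq start of Lincmd1 (250 before and 50 after, chr1:20739856-20740155 on the plus strand by exact match to GRCm39) are shown because one promoter lies ahead of both hairpins in the spliced transcript. Capitals mark the core letters of MEF2 sites, CTA and TAG with any 4 bases between, and CAGCTG, an E-box of the kind MyoD and myogenin bind.
Lincmd1 promoter: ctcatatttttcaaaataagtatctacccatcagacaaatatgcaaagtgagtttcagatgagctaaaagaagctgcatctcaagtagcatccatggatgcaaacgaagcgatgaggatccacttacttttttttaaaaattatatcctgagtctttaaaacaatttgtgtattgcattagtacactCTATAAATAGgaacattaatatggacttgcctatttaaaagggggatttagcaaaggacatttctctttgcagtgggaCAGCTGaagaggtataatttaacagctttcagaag

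These motifs read the same on both strands. The MEF2 core occurred once, starting at position -63 from the start site, and 3.69% of 32851 mouse promoters of this length held it. CAGCTG occurred once, at position 16, and 16.3% of promoters held it. The looser E-box CANNTG, which includes CAGCTG, occurred at position -195 and again at 16, and 72.3% of promoters held it. These are letter matches only.

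Total counts were 4761271 to 6277018 per library, with 524 to 602 miRNAs detected, and miR-1a-3p alone took 61.4% to 73.7% of each library. TMM factors, which correct totals for such dominant miRNAs, ran from 0.826 to 1.265, the highest in the first Mbnl1KO library. Levels below are CPM, the count scaled to a common size of the TMM-corrected library total. Reads carried no molecular identifiers in the table, so counting intervals cover counting error only. Adapter ligation differs between sequences, so a count ranks groups for 1 miRNA and does not rank molecules of different miRNAs.

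miR-206-3p, the guide arm of miR-206, was higher in Mbnl1KO than in WT and, to a smaller extent, higher in Mbnl2KO. Its raw counts were 4031, 3770 and 2917 in WT, 20422, 15679 and 15394 in Mbnl1KO, and 8392, 6075 and 5411 in Mbnl2KO. On the CPM scale these were 713, 635 and 633 in WT (660.1 ± 45.9, SD, n = 3), 2738, 2860 and 2327 in Mbnl1KO (2642 ± 279.6, n = 3), and 1490, 998 and 1196 in Mbnl2KO (1228 ± 247.6, n = 3). Every Mbnl1KO library was above every Mbnl2KO library, and every Mbnl2KO library was above every WT library. The spread between mice, a coefficient of variation of 6.95% in WT, 10.6% in Mbnl1KO and 20.2% in Mbnl2KO, exceeded the counting error of the groups' mean counts (0.763% to 1.67%). It took 0.0628% of all counts in WT and 0.296% in Mbnl1KO.

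**Figure D1:**
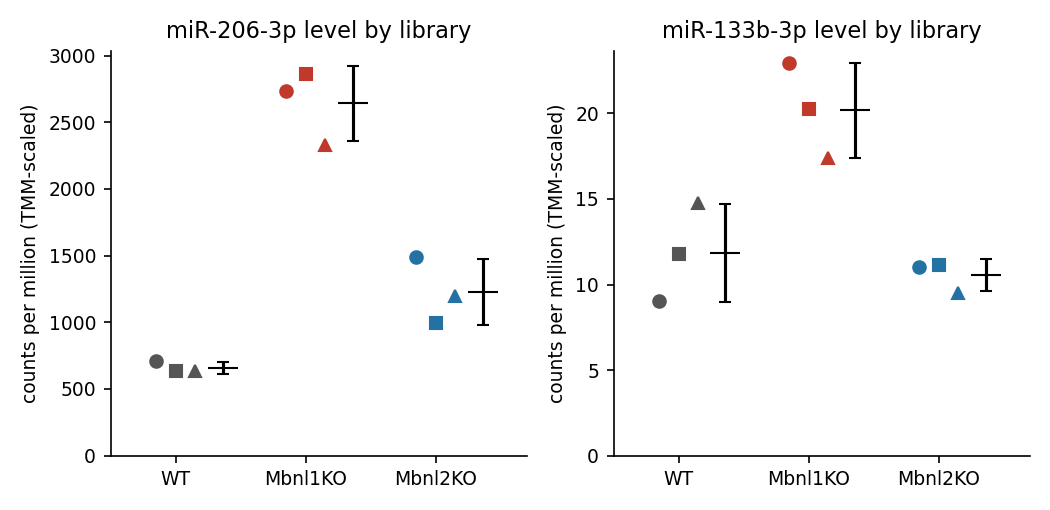
Levels of both guide arms in each library (TMM-scaled CPM, linear vertical axes from 0) by group. Points are single mice, with 1 marker shape per replicate number, and the horizontal line and whiskers beside them are the group mean ± 1 SD (n = 3). miR-206-3p separates the 3 groups (WT 633 to 713, Mbnl2KO 998 to 1490, Mbnl1KO 2327 to 2860), whereas miR-133b-3p separates only Mbnl1KO (17.4 to 22.9) from the other two.

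Against WT, miR-206-3p rose in Mbnl1KO by 1.93 on the log2 scale (SE 0.15, 95% interval 1.63 to 2.23, 3.81-fold, edgeR quasi-likelihood test, Benjamini-Hochberg adjusted p = 4.37e-21). Of the 317 miRNAs tested, 33.1% were called in that comparison, 18.9% as higher and 14.2% as lower, and in 42.6% the groups did not overlap. A change of this size was the 12th largest of the 317 in absolute value. It was called again without any one library, with values of 1.87 to 2.02.

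In Mbnl2KO it rose by 0.89 against the same WT libraries (SE 0.14, 95% interval 0.60 to 1.19, 1.86-fold, edgeR adjusted p = 0.000757). In this comparison only 5.80% of 293 miRNAs were called, 3.41% as higher and 2.39% as lower, and in 24.9% the groups did not overlap. It was the 15th largest change and remained called without any one library (0.68 to 1.05). Since the 2 comparisons share their WT libraries, the knockouts were also set directly against each other. miR-206-3p was higher in Mbnl1KO than in Mbnl2KO by 1.06 (SE 0.14, 95% interval 0.77 to 1.36, 2.09-fold, edgeR adjusted p = 2.87e-05), where 26.9% of 309 miRNAs were called, 15.2% as higher, and in 46.0% the groups did not overlap. It remained called without any one library. In whole muscle a different number of cells of one type and a different amount of RNA per cell cannot be told apart.

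miR-133b-3p, the guide arm of the second hairpin, was counted far less often. Its raw counts were 51, 70 and 68 in WT, 171, 111 and 115 in Mbnl1KO, and 62, 68 and 43 in Mbnl2KO. Levels were 9.02, 11.8 and 14.7 CPM in WT (11.9 ± 2.86, SD, n = 3), 22.9, 20.3 and 17.4 CPM in Mbnl1KO (20.2 ± 2.77), and 11.0, 11.2 and 9.50 CPM in Mbnl2KO (10.6 ± 0.922). The Mbnl1KO libraries were above all others, while WT and Mbnl2KO overlapped. At such counts the sampling error is large: the exact Poisson 95% interval was 38.0 to 67.1 for the count of 51 and 146 to 199 for the count of 171. The coefficients of variation between mice (24.2% in WT, 13.7% in Mbnl1KO and 8.73% in Mbnl2KO) stood beside counting errors of 12.6%, 8.69% and 13.2%.

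Against WT, miR-133b-3p rose in Mbnl1KO by 0.71 on the log2 scale (SE 0.24, 95% interval 0.23 to 1.20, 1.64-fold, edgeR adjusted p = 0.0172). This call was lost without the first WT library (0.57, adjusted p = 0.123), without the second WT library (0.69, adjusted p = 0.0711) and without the first Mbnl1KO library (0.61, adjusted p = 0.0944), and held without each of the other 3. The study reported no significant rise of mature miR-133b in Mbnl1KO, although the precursor transcript shared with miR-206 was higher by PCR. In Mbnl2KO against WT the difference was -0.15 (SE 0.24, 95% interval -0.66 to 0.35, adjusted p = 0.787), an interval that leaves room for changes in either direction, and without the third WT library its sign turned (0.016, adjusted p = 0.973). Between the knockouts miR-133b-3p was higher in Mbnl1KO by 0.88 (SE 0.22, 95% interval 0.42 to 1.34, 1.84-fold, edgeR adjusted p = 0.00719), and this was called without any one library (0.76 to 0.99).

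**Figure D2:**
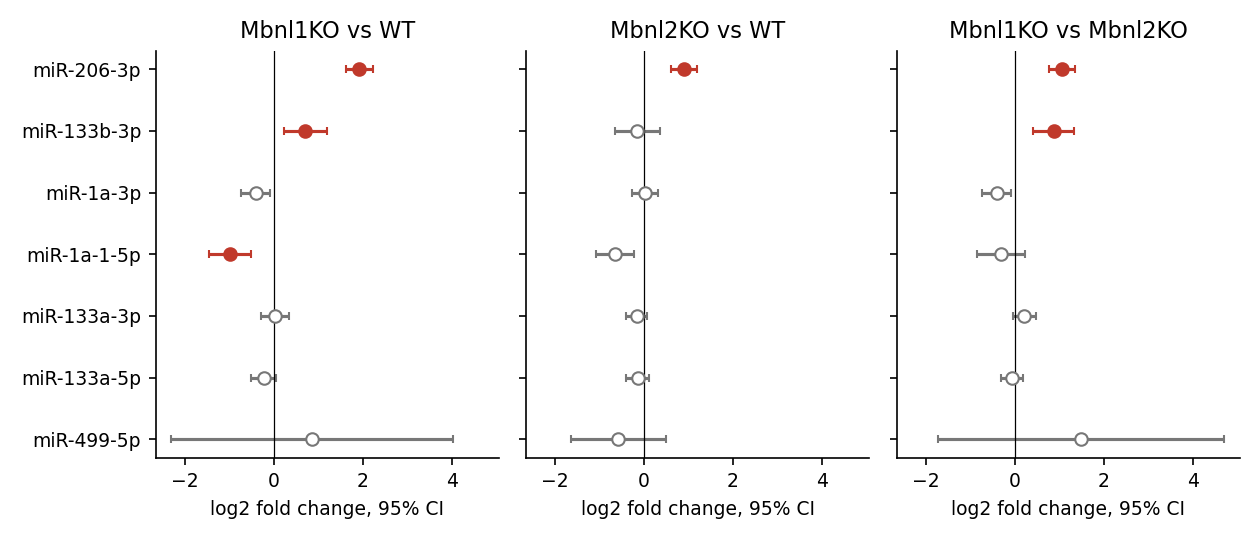
Log2 fold changes from edgeR with 95% intervals (horizontal axis) for miR-206-3p, miR-133b-3p and the tested myomiRs in each of the 3 comparisons; filled red markers passed an adjusted p of 0.05 and open ones did not. miR-206-3p lies to the right of 0 in every panel, and miR-133b-3p does so in the panels that involve Mbnl1KO.

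The level of miR-133b-3p is uncertain in a way that of miR-206-3p is not. A read that lacks the last base, or carries another base there, cannot be told from miR-133a-3p, which had 295313 to 603113 counts per library. In the other direction, a miR-133a-3p read that carries the last base of miR-133b-3p through an error or an added base would count as miR-133b-3p. miR-133b-3p made up 0.0161% ± 0.00307 of the counts of both in WT, 0.0262% ± 0.00572 in Mbnl1KO and 0.0162% ± 0.00139 in Mbnl2KO (SD, n = 3). How reads common to the pair had been assigned is not given for the deposited table. At shares this small, the part of altered miR-133a-3p reads in the level and in the change of miR-133b-3p was not tested. miR-133a-3p itself differed by 0.03 in Mbnl1KO against WT (95% interval -0.27 to 0.34, edgeR adjusted p = 0.887) and by -0.16 in Mbnl2KO (95% interval -0.40 to 0.07, adjusted p = 0.498).

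The passenger arms were almost unseen. miR-206-5p had 0, 0 and 0 counts in WT, 3, 0 and 5 in Mbnl1KO, and 1, 0 and 1 in Mbnl2KO. It did not reach the mean normalized count of 10 asked for a test. Of the counts of both miR-206 arms, it took 8 of 51503 in Mbnl1KO (0.0155%, exact Clopper-Pearson 95% interval 0.00671% to 0.0306%) and 2 of 19880 in Mbnl2KO (0.0101%, 0.00122% to 0.0363%). In WT 0 of 10718 allows a share of up to 0.0280% by 3 counts, or 0.0344% as the upper Clopper-Pearson limit, so the share in the 3 groups was not distinguishable at this depth. miR-133b-5p was listed at 0 in all 9 libraries. Set against the 759 counts of miR-133b-3p in all 9 libraries, this allows a share of up to 0.395%, provided that these entries are true counts of 0. The level that 3 counts allow was 0.402 to 0.663 CPM in single libraries. Some miRNAs that muscle tissue usually contains, such as miR-24-3p and the endothelial miR-126a-3p, were also listed at 0. The study itself lists miR-24-3p among the miRNAs changed in both knockouts. An entry at 0 in the deposited counts therefore need not mean that a miRNA was absent.

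Ratios within a library do not depend on how libraries are scaled, and 4 were compared over all 9 libraries by an exact permutation test on the log2 ratio (1680 assignments, smallest possible p = 0.00357, adjusted over the 4). The first set miR-206-3p against miR-1a-3p, its partner in the seed family. There was 1 count of miR-206-3p for every 1088, 1141 and 1138 counts of miR-1a-3p in WT, for every 177, 231 and 267 in Mbnl1KO, and for every 494, 629 and 747 in Mbnl2KO. The groups did not overlap, and WT mice were nearly alike. The mean log2 ratio was 2.34 higher in Mbnl1KO than in WT (5.06-fold), 0.87 higher in Mbnl2KO than in WT (1.83-fold) and 1.47 higher in Mbnl1KO than in Mbnl2KO (2.77-fold), with an exact permutation p = 0.00357, the smallest possible, over the 3 groups (adjusted p = 0.0143). Within the seed family shared with miR-1, miR-206-3p went from 0.0891% ± 0.00239 of counts in WT to 0.165% ± 0.0346 in Mbnl2KO and 0.456% ± 0.0962 in Mbnl1KO (SD, n = 3). It thus remained a small share of the family in all groups, and the whole family made up 61.7% to 68.9% of Mbnl1KO libraries, 67.3% to 73.8% of Mbnl2KO libraries and 69.8% to 71.4% of WT libraries.

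The second ratio compared the guide arms of the Lincmd1 hairpins. miR-206-3p had 79.0, 53.9 and 42.9 counts per count of miR-133b-3p in WT, 119, 141 and 134 in Mbnl1KO, and 135, 89.3 and 126 in Mbnl2KO. All knockout libraries were above all WT libraries, and the knockouts overlapped. The log2 ratio was higher than in WT by 1.21 in Mbnl1KO (2.31-fold) and by 1.02 in Mbnl2KO (2.03-fold), and the knockouts differed by 0.19 (exact permutation p = 0.0214 over the 3 groups, adjusted p = 0.0429). The adjusted p reached 0.05 or more when any Mbnl1KO or Mbnl2KO library or the third WT library was left out (0.05 to 0.0821), while the difference of Mbnl1KO from WT was 1.01 to 1.45. These values also carry the uncertainty on miR-133b-3p given above.

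For the third ratio, 1 count of miR-133b-3p stood against 7778, 6055 and 5275 counts of miR-133a-3p in WT, 3527, 3282 and 5087 in Mbnl1KO, and 5893, 5899 and 6868 in Mbnl2KO. The Mbnl1KO libraries had the highest ratio, although the third was close to the third WT library. The log2 ratio was higher in Mbnl1KO than in WT by 0.69, and Mbnl2KO differed from WT by 0.02 (exact permutation p = 0.0393, adjusted p = 0.0524). It did not pass without any one library either (0.54 to 0.89, adjusted p = 0.0571 to 0.11). The fourth ratio, of the main adult myomiRs miR-1a-3p and miR-133a-3p, was 10.1 in WT, 7.48 in Mbnl1KO and 11.4 in Mbnl2KO as geometric means (exact permutation p = 0.0893, adjusted p = 0.0893), and it passed only without the second Mbnl1KO library (a log2 difference of -0.64 between Mbnl1KO and WT, adjusted p = 0.0286).

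**Figure D3:**
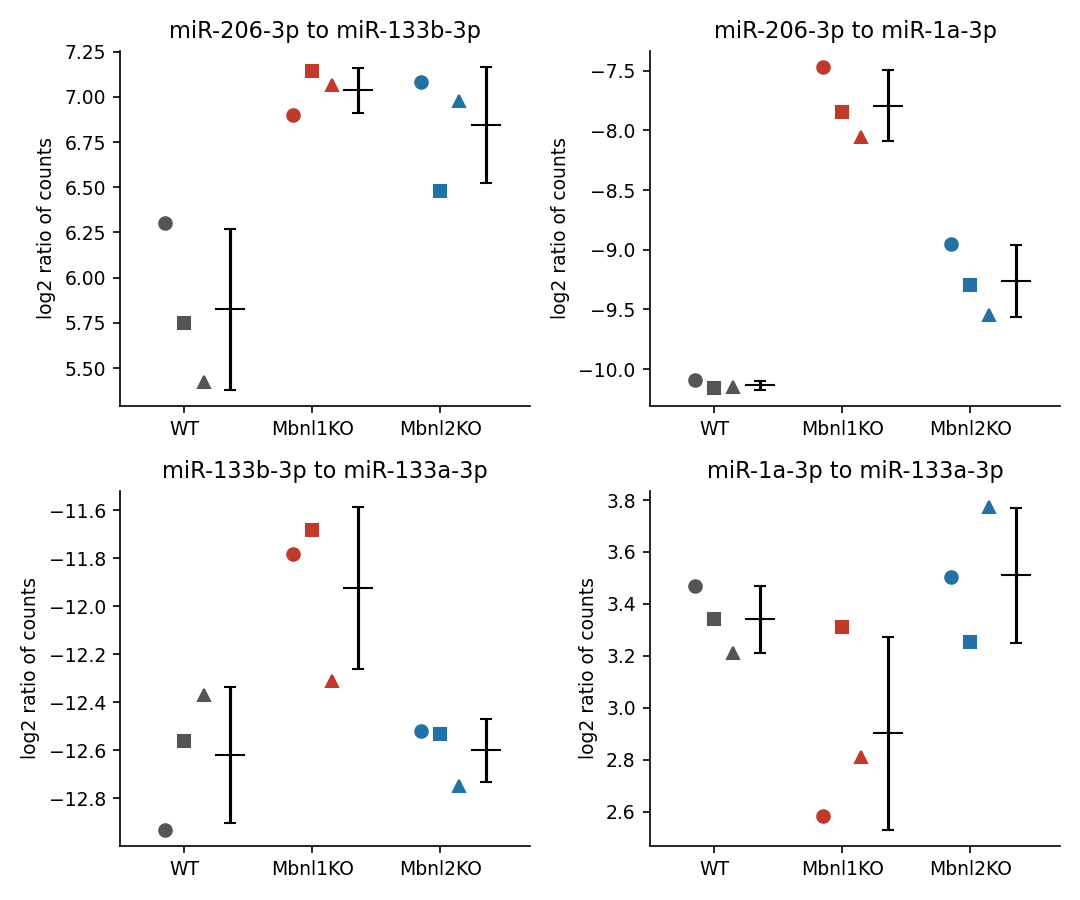
The 4 ratios of counts within each library (vertical axes, log2 scale, not starting at 0) by group. Points are single mice, and the line and whiskers beside them are the group mean ± 1 SD (n = 3). The ratio of miR-206-3p to miR-1a-3p keeps the 3 groups apart, and that of miR-206-3p to miR-133b-3p puts the knockouts together above WT.

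Other muscle miRNAs were taken from a list of 18 arms of miR-1, miR-133a, miR-133c, miR-208, miR-486 and miR-499, of which 10 were listed at 0 in all libraries and 5 could be tested in each comparison. Every listed arm of miR-486 was at 0, although the study names miR-486 among its most deregulated miRNAs in Mbnl1KO. The counts below therefore do not cover miR-486. In Mbnl1KO none of the 5 rose and 1 fell in edgeR, against 33.1% of all miRNAs called. The number called was 2 in DESeq2, 0 with library totals in place of TMM and 3 without the second Mbnl1KO library. Of all miRNAs these settings called 99 of 317, 101 of 318 and 115 of 317. The one that fell was miR-1a-1-5p, the passenger arm of miR-1a-1, with 126, 154 and 88 counts in WT and 114, 42 and 84 in Mbnl1KO. Its level was 22.4 ± 3.43 CPM in WT and 11.9 ± 3.88 CPM in Mbnl1KO (log2 fold change -0.98, SE 0.24, edgeR adjusted p = 0.00063). The guide arm miR-1a-3p differed by -0.40 (SE 0.16, 95% interval -0.73 to -0.07, adjusted p = 0.0502), just outside the threshold. The study, which used DESeq2, reported miR-1 as significantly lower in Mbnl1KO, so the calls differ. In Mbnl2KO against WT 0 of the 5 passed in edgeR, against 5.80% of all 293 miRNAs, and 1 passed in DESeq2, against 19 of the 293. An unadjusted p under 0.05 was found for 1, miR-1a-1-5p (-0.66, edgeR unadjusted p = 0.00412, adjusted p = 0.0636), and for 18.1% of all miRNAs. miR-1a-3p differed there by 0.02 (95% interval -0.27 to 0.31, adjusted p = 0.958). Between the knockouts 0 of the 5 passed in either tool, against 26.9% of all 309 miRNAs called in edgeR. Of the 5, 1, miR-1a-3p, had an unadjusted p under 0.05 (0.0187), as did 39.2% of all miRNAs. miR-133a-5p, the passenger arm of miR-133a, differed by -0.22 in Mbnl1KO (edgeR adjusted p = 0.23) and by -0.15 in Mbnl2KO (adjusted p = 0.542). miR-499-5p, encoded in a slow myosin gene, had 1.88, 17.5 and 1.66 CPM in Mbnl1KO and 1.52 to 5.13 CPM in WT, so that its group mean rests on the second Mbnl1KO library.

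A list of 23 miRNAs with known roles in satellite cells, myoblast proliferation and muscle repair was read in the same way, with 18 tested in Mbnl1KO against WT. Of these 4 rose and 1 fell in edgeR, 5 in all, against the 33.1% of all miRNAs called. The count was 5 in DESeq2, 3 without the first WT library, and 10 when library totals replaced TMM, where 101 of all 318 miRNAs were called and the median of all miRNAs was itself 0.30. The median log2 fold change of the list was 0.27, and that of all tested miRNAs was -0.01. miR-27b-3p, which represses Pax3 and so favours the exit of satellite cells from proliferation, rose by 0.72 (SE 0.14, edgeR adjusted p = 1.82e-05), from 682, 736 and 659 CPM in WT to 1295, 1183 and 1122 CPM in Mbnl1KO. Its relative miR-27a-3p, of the same seed, rose by 1.61 (SE 0.43, adjusted p = 0.00167), from 7, 8 and 3 counts to 26, 21 and 23. miR-322-5p and miR-351-5p, made from one cluster that is induced as myoblasts leave the cell cycle, rose by 0.69 (adjusted p = 0.000367) and 0.46 (adjusted p = 0.0293). miR-125b-5p, which targets Igf2 in myoblasts, fell by 0.42 (adjusted p = 0.0178). All 5 of these had smaller absolute changes than miR-206-3p.

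In Mbnl2KO against WT, where 5.80% of all miRNAs were called and 18.1% had an unadjusted p under 0.05, 0 of the 17 list members tested passed in edgeR or in DESeq2. An unadjusted p under 0.05 was found for 4: miR-351-5p at 0.47 (edgeR unadjusted p = 0.00507, adjusted p = 0.0742), miR-31-5p at 0.85, miR-222-3p at 0.30 and, in the other direction, miR-21a-5p at -0.34. The list's median was 0.03 beside 0.02 for all miRNAs. In the direct comparison, where 15.2% of all miRNAs were higher and 11.7% lower, 4 of 18 were higher in Mbnl1KO (miR-27b-3p by 0.72, miR-27a-3p by 1.99, miR-34a-5p by 0.60 and miR-322-5p by 0.52) and 2 lower (miR-26a-5p by -0.40 and miR-125b-5p by -0.43).

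Across the 9 libraries the profile of miR-206-3p was compared with those of 309 other miRNAs by the root mean square difference of centred log2 CPM. The 5 nearest were miR-409-3p (0.33), miR-409-5p (0.38), miR-493-5p (0.40), miR-541-5p (0.40) and miR-376b-5p (0.41), against a median of 0.88. For miR-133b-3p the nearest were miR-23a-3p (0.19), miR-27b-5p (0.20), miR-322-5p (0.21), miR-27b-3p (0.21) and miR-382-5p (0.23), against a median of 0.54. The profiles of miR-206-3p and miR-133b-3p were 0.60 apart. Because values were centred but not scaled, this distance depends on the size of a change as well as on its pattern. By it miR-133b-3p was the 36th nearest to miR-206-3p, and miR-206-3p the 197th nearest to miR-133b-3p. These are descriptions over 9 libraries that share their group structure.

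**Figure D4:**
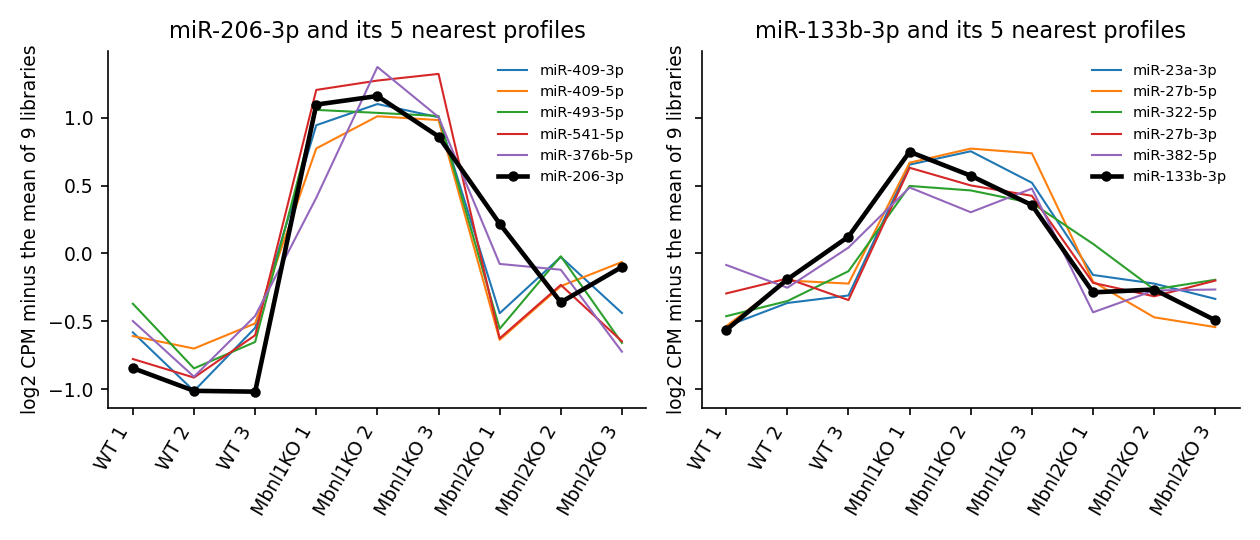
Centred log2 CPM (vertical axis) of miR-206-3p and of miR-133b-3p with the 5 miRNAs nearest to each, in the 9 libraries ordered by group; lines only join the values of 1 miRNA. Both members are highest in Mbnl1KO, and of these members miR-206-3p, but not miR-133b-3p, lies higher in every Mbnl2KO library than in every WT library.

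Markers of other cells in whole muscle were read beside these results. Of 10 miRNAs of blood and immune cells, 9 had counts (miR-142a-3p was at 0), and their summed level was 600 to 722 CPM in Mbnl1KO, 700 to 731 in Mbnl2KO and 672 to 878 in WT. In Mbnl1KO against WT, 1 of 8 tested was higher (miR-155-5p by 0.86, edgeR adjusted p = 1.02e-05) and 4 were lower, against 18.9% and 14.2% of all miRNAs. The lower ones were miR-146b-5p (-1.32), miR-223-3p of myeloid cells (-0.87), miR-142a-5p (-0.84) and miR-146a-5p (-0.49), with edgeR adjusted p = 4.66e-07 to 0.0295. In Mbnl2KO 0 of the 8 passed in edgeR or in DESeq2 (5.80% of all miRNAs in edgeR), with 2 at an unadjusted p under 0.05 (18.1% of all miRNAs). Of 12 miRNAs of connective tissue and vessels, 10 had counts (both arms of miR-126a were at 0), with sums of 6440 to 9090 CPM in Mbnl1KO, 8260 to 9380 in Mbnl2KO and 6810 to 7180 in WT. In Mbnl2KO, where the sums were above all WT sums, 1 of 10 tested was higher, miR-143-3p of smooth muscle, by 0.48 (edgeR adjusted p = 0.0169), against 3.41% of all miRNAs. In Mbnl1KO 2 of the 10 tested were lower, against 14.2% of all miRNAs, namely miR-199a-3p (-0.43) and miR-199b-3p (-0.43), which share one mature sequence. Between the knockouts, 1 of the 8 immune and blood markers was higher in Mbnl1KO (miR-155-5p, by 1.31, edgeR adjusted p = 0.00178) and 4 were lower (miR-142a-5p by -1.19, miR-223-3p by -0.98, miR-146b-5p by -0.95 and miR-146a-5p by -0.46). Of the 10 connective and vessel markers 3 were lower (miR-199b-5p by -0.65, miR-199b-3p by -0.46 and miR-199a-3p by -0.45), against 15.2% of all miRNAs higher and 11.7% lower. Of 8 miRNAs of nerve, 7 were at 0 and the sum was at most 0.453 CPM. The part of cell makeup in the changes of miR-206-3p and miR-133b-3p was not tested.

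Scaling by library totals in place of TMM moved the median of all miRNAs in Mbnl1KO against WT from -0.01 to 0.30, along with the smaller share of miR-1a-3p in that group. miR-206-3p was then higher by 2.24 and miR-133b-3p by 1.02 in Mbnl1KO, both above that shift, and miR-206-3p was higher by 0.88 in Mbnl2KO.

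**Figure D5:**
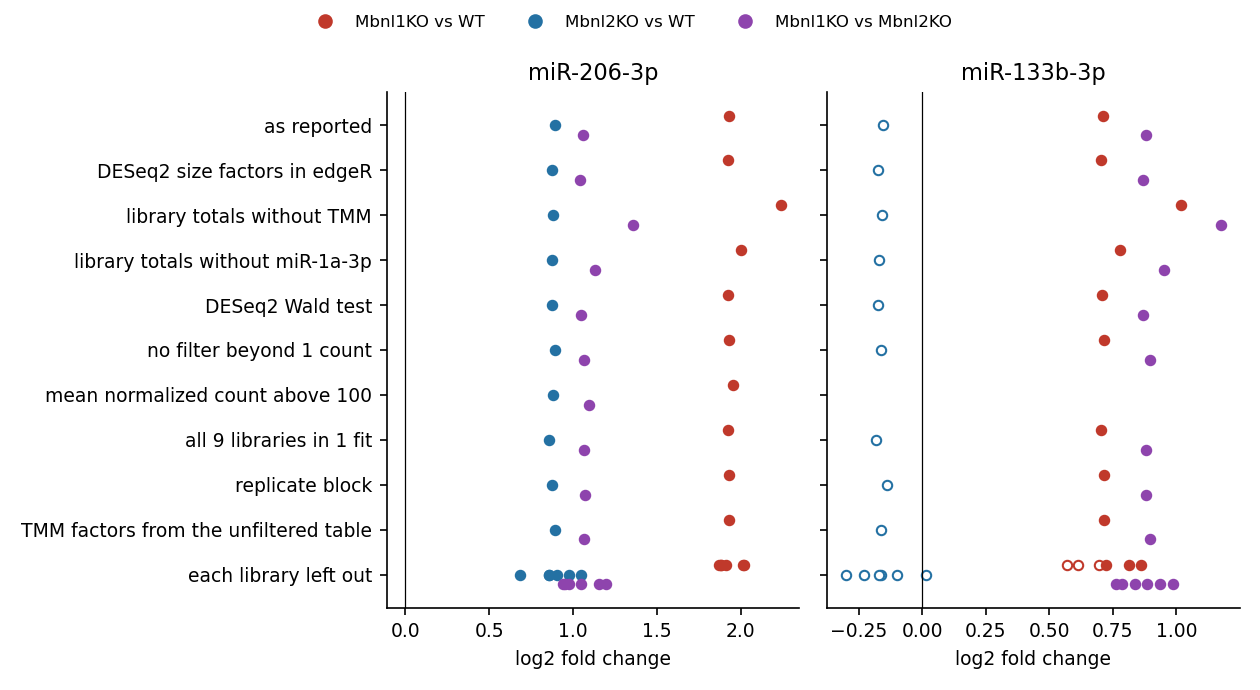
Log2 fold changes of miR-206-3p and miR-133b-3p (horizontal axis) in the 3 comparisons under each processing setting (vertical axis), with filled points where the adjusted p passed 0.05 and open points where it did not. Values of miR-206-3p keep apart from 0 throughout, and those of miR-133b-3p in Mbnl2KO against WT are all open, from -0.30 to 0.016. A miRNA has no point where a setting left it untested.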

How the data were processed

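The deposited table holds raw read counts for 1966 mature miRNAs in 9 libraries, made by the authors from NEXTflex small RNA libraries of quadriceps total RNA. The methods describe adapter clipping, collapsing of identical reads and alignment to miRBase precursors. Whether this made the deposited table is not given in the sources used here, and the submitters' processing notes name only DESeq2. Groups came from the labels, and the members and lists were chosen with earlier results of these data known. The 6 libraries of each pair were fitted with edgeR 4.0.16 (R 4.3.3, robust quasi-likelihood, TMM, Benjamini-Hochberg over all miRNAs with a mean normalized count above 10, threshold 0.05). DESeq2 1.42.0 was an alternative, and the fit was tested on simulated data. Levels are CPM with TMM over all 9 libraries. Profiles used a prior count of 2 and ratios SciPy 1.17.1. Depth was 4761271 to 6277018 counts per library, and a count of 0 was read as allowing up to 3 counts. Named miRNAs were the members, ratio partners, tested myomiRs, called list members and the 5 nearest profiles, and outside this rule some entries at 0 and miRNAs sharing a seed, chosen after their values were seen.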

Additional observations from a re-analysis of the deposited data

Results flagged for a closer look

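For miR-206-3p the change from WT differed between the knockouts: the direct comparison gave a level higher by 1.06 on the log2 scale in Mbnl1KO than in Mbnl2KO (edgeR adjusted p = 2.87e-05), with all 3 Mbnl1KO mice above all 3 Mbnl2KO mice. For miR-133b-3p the direct comparison likewise gave a difference of 0.88 (edgeR adjusted p = 0.00719), again without overlap. In this comparison 26.9% of all 309 miRNAs were called, and in 46.0% the groups did not overlap. Members were flagged because this same adjusted p was under 0.05. Both differences were calculated between the same 6 libraries.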

How the results depend on the processing

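miR-206-3p kept its direction and passed in all 3 comparisons under every setting run. Leaving out single libraries gave miR-133b-3p 0.57 to 0.86 in Mbnl1KO against WT, -0.30 to 0.016 in Mbnl2KO against WT (its sign turned, to 0.016, without the third WT library) and 0.76 to 0.99 between the knockouts. At a threshold of 0.01 the 0.71 of miR-133b-3p no longer passed, and it was not tested with a mean count above 100. Called myomiRs in Mbnl1KO against WT numbered 1, and 2 with DESeq2 or its size factors, 0 with library totals and 1 to 3 without single libraries. Called regeneration miRNAs there numbered 5, and 10 with library totals and 3 to 5 without single libraries. Beside these, 105 of all 317 miRNAs were called, 99 with DESeq2 and 108 with its size factors. Library totals gave 101 of 318, and fits without single libraries 75 to 115. In Mbnl2KO against WT DESeq2 called 1 myomiR and the replicate block 1 regeneration miRNA, with 0 to 1 for each list without single libraries. Between the knockouts called myomiRs numbered 0, and 1 with library totals and 0 to 1 without single libraries. Called regeneration miRNAs there numbered 6, and 9 with library totals and 4 to 7 without single libraries. Of all 309 miRNAs 83 were called between the knockouts, and 56 to 93 without single libraries. Library totals gave 77 of 311, with the median of all miRNAs at 0.36. The ratio of miR-206-3p to miR-133b-3p (a log2 difference of 1.21, and 1.01 to 1.45 without single libraries) missed the threshold by ranks (exact adjusted p = 0.0952). Chosen after seeing the data, the sum of miR-133a-3p and miR-133b-3p as denominator gave 1.90 (exact adjusted p = 0.00714), but miR-133b-3p is 0.0129% to 0.0305% of that sum, so this is in effect the ratio to miR-133a-3p and no check of the ratio to miR-133b-3p. TMM factors from the unfiltered table changed no call of a member. Leaving out libraries gave 2.18 to 2.47 for miR-206-3p to miR-1a-3p, 0.54 to 0.89 for miR-133b-3p to miR-133a-3p and -0.64 to -0.28 for miR-1a-3p to miR-133a-3p. Library numbers did not pair the mice (correlations of deviations -0.155 to 0.115, with 2 of 9 libraries closest to their own number). With the replicate block the miR-206-3p ratios of 1.21 and 2.34 had exact adjusted p = 0.167 and 0.111, where the smallest possible unadjusted p is 0.0278, and no call of a member changed. The cause of these shifts was not tested. In Mbnl2KO against WT 17 of all 293 miRNAs were called, 19 with DESeq2 and 21 with the replicate block. The number was 7 with library totals, 9 with a mean count above 100 and 8 to 23 without single libraries. Low counts limit miR-133b-3p and both passenger arms.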
